A study of Homo sapiens with 36 samples.

Results

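Aminoacyl-tRNA synthetases are the enzymes that charge each tRNA with its amino acid, and their genes were followed in MDA-MB-231 cells treated with SHP1705, a proteasome inhibitor or both. The 35 genes were chosen by symbol out of 54583 genes in each count table. Of these, 19 encode cytosolic enzymes (symbols ending in 1, with the phenylalanine subunits FARSA and FARSB), and 16 encode mitochondrial ones (symbols ending in 2). All 35 passed the filter on low counts in each of the 3 tables, so no gene was lost.

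MDA-MB-231 is a human triple-negative breast cancer line, and SHP1705 is a stabilizer of cryptochrome (CRY), which represses transcription in the circadian clock. MG132 and carfilzomib (CFZ) are inhibitors of the proteasome, the protease that clears ubiquitin-tagged proteins. PolyA RNA-seq of 36 libraries was deposited as 3 sets of 12, each with 4 groups of 3 libraries. The MG132 set held cells given 10 µM SHP1705 plus 100 nM MG132 (the combination), 100 nM MG132, 10 µM SHP1705, or DMSO for 8 h. The CFZ sets held 10 µM SHP1705 plus 10 nM CFZ, 10 nM CFZ, 10 µM SHP1705, or DMSO, for 8 h in one set and 24 h in the other. The compounds were diluted in DMSO, so every group received the solvent, and all groups are cultures of 1 cell line. Whether the replicates were separate cultures is not stated for each library, and p-values then measure only how these libraries vary, which may be technical variation.

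A cytosolic synthetase serves the ribosomes that translate nuclear messages, and a mitochondrial one serves the few proteins that mitochondria make for themselves. KARS1 (lysine) and GARS1 (glycine) each supply both compartments from 1 gene. Several cytosolic enzymes (EPRS1, IARS1, LARS1, MARS1, QARS1, RARS1 and KARS1 here) sit in a multi-synthetase complex held by the scaffold proteins AIMP1, AIMP2 and EEF1E1. Many cytosolic synthetase genes are known targets of ATF4, the transcription factor of the integrated stress response, which is made when amino acids run short or proteins misfold. ATF4 and its partners of the C/EBP family bind a composite element whose core is written TGATGNAA.

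That core was looked for on both strands of the promoter windows of RefSeq (GRCh38.p14), which run from 250 bases before to 50 bases after a gene's start. A promoter was at hand for 30 of the 35 genes, 16 cytosolic and 14 mitochondrial; VARS1, YARS1, LARS1, VARS2 and AARS2 had none in the table. Of the 16 cytosolic genes, 7 held the core (43.8%), and of the 14 mitochondrial genes 1 did, YARS2 (7.14%), where 4.46% of all 27305 genes with a promoter held it. The 8 matches are printed because all 7 cytosolic genes that hold the core rose in the MG132 set, while YARS2 did not. The matched letters are in capitals, read 5′ to 3′ on the strand of the gene, and TTGCATCA is the core read from the other strand.
CARS1 (chr11:3057407-3057436, minus strand): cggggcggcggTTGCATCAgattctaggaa
GARS1 (chr7:30594834-30594863, plus strand): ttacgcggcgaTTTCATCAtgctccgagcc
MARS1 (chr12:57488053-57488082, plus strand): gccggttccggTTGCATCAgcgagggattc
AARS1 (chr16:70289675-70289704, minus strand): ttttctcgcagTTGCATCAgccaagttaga
TARS1 (chr5:33440956-33440985, plus strand): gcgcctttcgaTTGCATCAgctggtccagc
NARS1 (chr18:57621804-57621833, minus strand): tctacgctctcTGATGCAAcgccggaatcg
IARS1 (chr9:92293692-92293721, minus strand): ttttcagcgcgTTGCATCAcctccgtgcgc
YARS2 (chr12:32756076-32756105, minus strand): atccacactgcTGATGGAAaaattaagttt

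Counted from the start that each promoter window uses, the match began 2 bases upstream in CARS1, 4 in MARS1, 13 in IARS1, 33 in GARS1, 187 in AARS1 and 197 in YARS2, and 2 and 14 bases downstream in TARS1 and NARS1. In CARS1 and MARS1 it ran across that start, and in GARS1 and TARS1 that start lies inside the annotated gene. The E-box CACGTG, which the clock activator BMAL1:CLOCK binds, reads the same on both strands and was found in 1 of 16 cytosolic genes (IARS1, 6.25%) and 3 of 14 mitochondrial genes (CARS2, EARS2 and MARS2, 21.4%), against 8.77% of all genes with a promoter. In IARS1, which holds both, the E-box began 186 bases upstream and shared no base with the ATF4 core. A match is a run of letters and no measured binding site.

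The libraries held 34200000 to 39300000 counts in the MG132 set, 17800000 to 27700000 in the CFZ set at 8 h and 18900000 to 34000000 at 24 h. The line's markers VIM, CD44, EGFR, AXL and CAV1 summed to 2626 CPM or more in every library (CPM, counts scaled by the TMM-adjusted library size). Of the markers listed as low, ESR1 and PGR averaged 0.169 CPM or less in each group of the MG132 set. With ERBB2 and CDH1 they summed to 38.7 to 68.5 CPM in its libraries. ERBB2 averaged 47.0 to 66.3 CPM in the groups of the CFZ set at 8 h and 82.0 to 92.0 CPM at 24 h. The luminal list (EPCAM, KRT8, KRT18 and GATA3) summed to 1585 to 1721 CPM in the MG132 set. Libraries stood apart in several ways. In the CFZ set at 8 h, several libraries went against their labels. HSPA1A, the inducible HSP70 gene, was at 792, 726 and 896 CPM in the libraries labelled CFZ, and at 14559, 23605 and 23242 CPM in those labelled DMSO. Within a label it was at 892, 12019.5 and 15052 CPM in the libraries labelled combination and at 19856, 705 and 693 CPM in those labelled SHP1705, so replicate 1 lay apart in both. PER3, a clock gene lower with SHP1705 in the other sets, went against the labels in replicates 2 and 3. It was at 9.62 and 7.91 CPM in those labelled SHP1705 and at 2.06 and 1.55 CPM in those labelled DMSO. In the same replicates it was at 7.69 and 8.196 CPM under the combination label and at 1.26 and 1.69 CPM under the CFZ label. In replicate 1 PER3 went with the labels. It was there at 2.25 CPM for SHP1705, 8.19 CPM for DMSO, 1.92 CPM for the combination and 6.78 CPM for CFZ. That set is therefore given last and by its labels only. Liver markers (ALB, APOA1, APOB and TTR) summed there to 6.44 CPM in SHP1705 replicate 1 and 5.83 CPM in combination replicate 3. The other libraries of the set were at 0.234 CPM or less for this list, and the source was not tested. In the MG132 set, the libraries labelled MG132 were close to DMSO for HSPA1A (608 to 926 CPM, against 533 to 615 CPM in DMSO), while the combination was at 38927 to 40611 CPM. Markers of fibroblasts, chiefly POSTN, were also present there, and their values stand beside the results they touch.

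In DMSO, cytosolic enzymes were expressed well above mitochondrial ones. On the scale of CPM per kilobase of exon in the MG132 set, the cytosolic median was 43.3 (17.6 in WARS1 to 189 in VARS1) and the mitochondrial median 8.84 (3.33 in PARS2 to 46.8 in IARS2). TARS1 (97.5) and RARS1 (90.9) followed VARS1, and CARS2 (22.8) followed IARS2. The ranges of the classes overlapped, since IARS2 and CARS2 lay above WARS1.

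SHP1705 together with MG132 for 8 h raised most cytosolic synthetase genes. Mitochondrial ones passed the test in both directions, with a share, both directions together, near that of all genes tested. Against DMSO, 15 of 19 cytosolic genes rose, 3 fell (VARS1, FARSB and FARSA) and QARS1 did not pass the test, where 58.8% of all 16591 genes tested passed (29.2% higher and 29.7% lower). Of 16 mitochondrial genes, 3 rose (RARS2, WARS2 and HARS2), 6 fell and 7 did not pass. The median log2 fold change was 0.86 over the cytosolic genes and -0.10 over the mitochondrial genes, beside -0.01 over all genes tested. The 3 combination libraries did not overlap the 3 DMSO libraries for 18 cytosolic and 11 mitochondrial genes, and 63.5% of all genes were separated in this way. A gene is said to rise or fall where its p in edgeR's quasi-likelihood test, adjusted over all genes by the Benjamini-Hochberg method, was under 0.05. In bulk libraries, fewer cells of a type and less RNA per cell cannot be told apart. The combination's TMM factors were 0.845 to 0.856, beside 1.05 to 1.07 in the other 9 libraries, and with relative log expression factors the counts of called genes were the same.

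**Figure D1:**
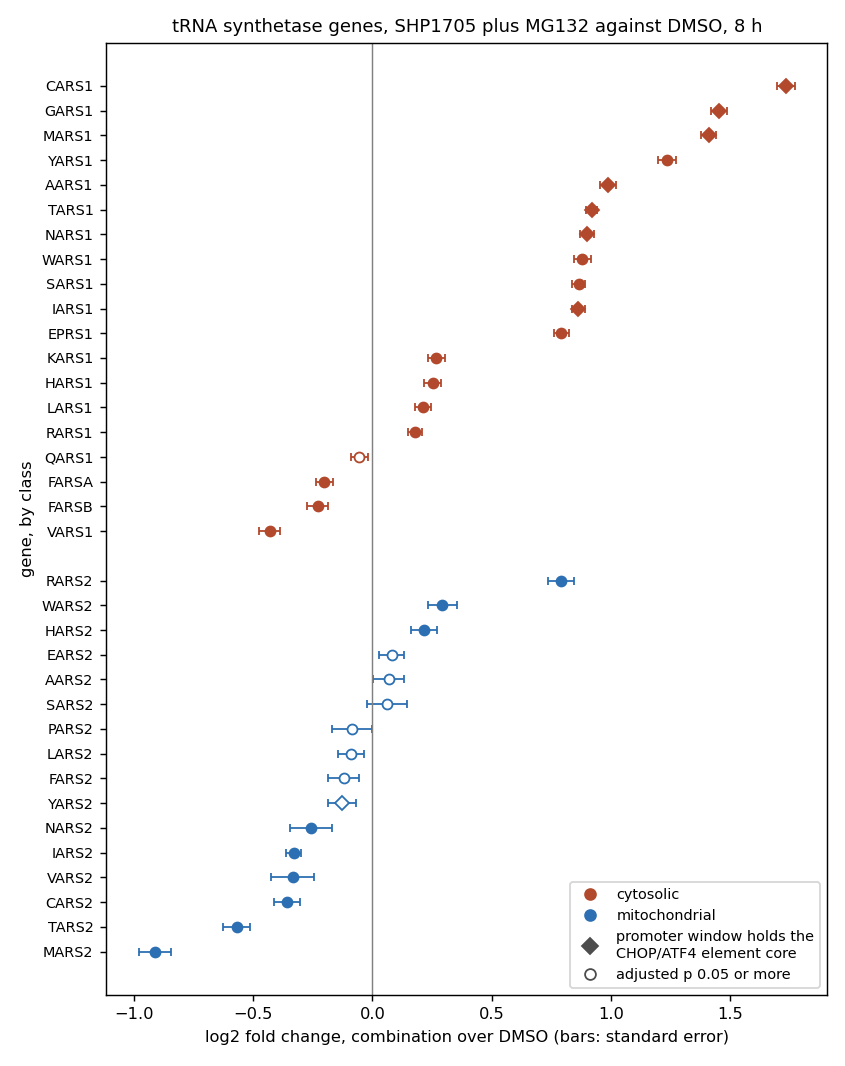
Log2 fold change of each of the 35 genes in the combination over DMSO in the MG132 set, with standard errors, cytosolic genes above and mitochondrial genes below. Diamonds mark genes with the ATF4 core. The 7 cytosolic ones lie between 0.86 and 1.73, and the mitochondrial YARS2 lies at -0.13 and is not called. The mitochondrial genes lie between -0.91 and 0.79.

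The largest rises were of the cysteine, glycine and methionine enzymes. CARS1 was at 327, 316 and 323 CPM in the combination, against 101, 98.9 and 91.1 CPM in DMSO, a log2 fold change of 1.73 ± 0.04 (SE). GARS1, which also supplies glycyl-tRNA in mitochondria, was at 446, 448 and 474 CPM in the combination and at 161, 171 and 168 CPM in DMSO (1.45 ± 0.03). MARS1 was at 233, 237 and 234 CPM in the combination and at 88.0, 88.0 and 89.4 CPM in DMSO (1.41 ± 0.03). The 3 combination libraries lay above all other libraries of the set for these genes, with Benjamini-Hochberg adjusted p-values of 4.87e-18, 1.48e-17 and 4.43e-18 by edgeR's quasi-likelihood test. MARS1 overlaps DDIT3 and ARHGAP9 on chromosome 12, and the strand setting of the counting is not given. DDIT3, which encodes the stress factor CHOP, ranged over 29.3 to 32.7 CPM in the combination and over 10.5 to 11.6 CPM in DMSO. The part of the overlap in the change of MARS1 was not tested.

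**Figure D2:**
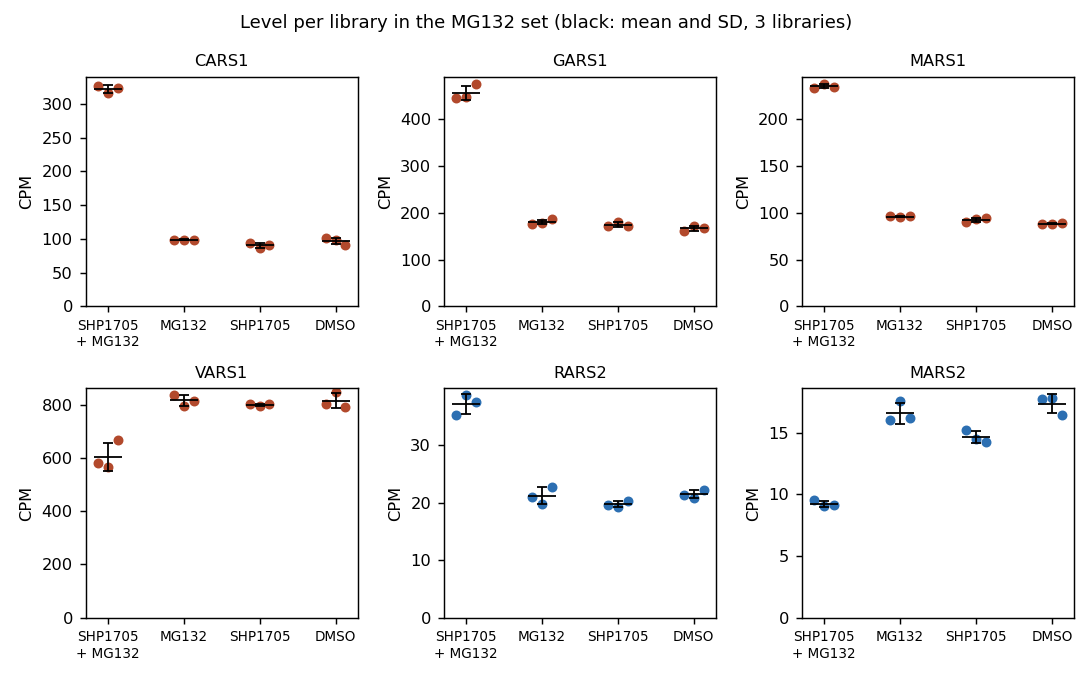
CPM in each library of the MG132 set for 4 cytosolic genes (red) and 2 mitochondrial genes (blue), with mean and SD of 3 libraries in black. In CARS1, GARS1, MARS1 and RARS2 the combination lies above all other libraries, and in VARS1 and MARS2 below them.

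The other cytosolic genes that rose did so by less. YARS1, the tyrosine enzyme, was at 219, 225 and 233 CPM in the combination and 96.2, 93.8 and 97.7 CPM in DMSO (1.24 ± 0.04), and it overlaps S100PBP. TARS1, for threonine, was at 836, 847 and 836 CPM in the combination and 451, 443 and 439 CPM in DMSO (0.92 ± 0.02). It was thereby the highest cytosolic gene of the combination, where VARS1 led in the other 3 groups. NARS1, for asparagine, was at 327, 337 and 338 CPM in the combination and 178, 180.0 and 179 CPM in DMSO (0.90 ± 0.03). AARS1 (0.99 ± 0.03), WARS1 (0.88 ± 0.04), SARS1 (0.87 ± 0.03), IARS1 (0.86 ± 0.03) and EPRS1 (0.79 ± 0.03) rose by similar amounts. The smallest rises were in 4 genes. KARS1, the other enzyme of both compartments, was at 175, 191 and 184 CPM in the combination and 149, 153 and 154 CPM in DMSO (0.27 ± 0.03). HARS1, for histidine, was at 127, 138 and 133 CPM in the combination and 113, 112 and 109.8 CPM in DMSO (0.25 ± 0.04). LARS1 (0.21 ± 0.03) and RARS1 (0.18 ± 0.03) rose least.

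The cytosolic genes that fell were those for valine and phenylalanine. VARS1 was at 581, 564 and 665 CPM in the combination, against 803, 845 and 792 CPM in DMSO, a log2 fold change of -0.43 ± 0.04. FARSB and FARSA, the subunits of 1 enzyme, moved together. FARSB was at 53.9, 57.4 and 58.3 CPM in the combination and 64.1, 67.3 and 67.6 CPM in DMSO (-0.23 ± 0.04). FARSA was at 129, 132 and 126 CPM in the combination and 151, 142 and 152 CPM in DMSO (-0.20 ± 0.04). For all 3, no combination library reached the lowest DMSO library. VARS1 (31777518 to 31795752 on chromosome 6) lies 19.8 kb from HSPA1A, whose own change had the opposite sign. Whether the changes are linked was not tested. QARS1, for glutamine, was at -0.05 ± 0.04, and it was called lower (-0.10, adjusted p = 0.044 by the same test) without combination replicate 2.

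Among the mitochondrial genes RARS2 rose most. RARS2, for arginine, was at 35.3, 38.8 and 37.5 CPM in the combination and 21.3, 20.9 and 22.3 CPM in DMSO (0.79 ± 0.06), a rise larger than that of its cytosolic counterpart RARS1. WARS2 was at 21.9, 22.7 and 21.4 CPM in the combination and 18.7, 17.4 and 17.7 CPM in DMSO (0.29 ± 0.06). HARS2 was at 25.5, 25.8 and 26.8 CPM in the combination and 21.9, 22.6 and 22.9 CPM in DMSO (0.21 ± 0.05). For these 3 genes every combination library was above every DMSO library.

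MARS2, for methionine, fell most, in contrast to the rise of MARS1. It was at 9.53, 9.05 and 9.11 CPM in the combination and 17.8, 17.8 and 16.4 CPM in DMSO, a log2 fold change of -0.91 ± 0.07. TARS2 was at 18.6, 18.0 and 18.4 CPM in the combination and 27.2, 25.4 and 29.1 CPM in DMSO (-0.57 ± 0.06). IARS2, the highest of the mitochondrial genes in every group, was at 129, 134 and 135 CPM in the combination and 166, 166 and 169 CPM in DMSO (-0.33 ± 0.03). CARS2 (-0.36 ± 0.05), which overlaps ING1, VARS2 (-0.34 ± 0.09) and NARS2 (-0.26 ± 0.09) also fell. The call of NARS2 was lost without combination replicate 2 or 3 or DMSO replicate 2 (-0.24 to -0.23, adjusted p = 0.054 to 0.0558 by the same test). YARS2 (-0.13 ± 0.06), FARS2 (-0.12 ± 0.06), LARS2 (-0.09 ± 0.05), PARS2 (-0.09 ± 0.09), SARS2 (0.06 ± 0.08), AARS2 (0.07 ± 0.07) and EARS2 (0.08 ± 0.05) did not pass, though LARS2 was called lower (-0.16, adjusted p = 0.013) without combination replicate 3 and YARS2 lower (-0.14, adjusted p = 0.0359) without MG132 replicate 2. FARS2 and EARS2 overlap LYRM4 and GGA2.

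Enzymes for the same amino acid whose symbols differ only in the last digit can be set side by side in 13 pairs. The cytosolic gene had the higher log2 fold change in 11 of 13 pairs, with a median difference of 0.92. The exceptions among these pairs were arginine and valine. Phenylalanine, glutamate and proline were left out, as their symbols do not match in this way. FARSA and FARSB lay below FARS2, and EPRS1 lay above EARS2 and PARS2. The methionine pair lay farthest apart, with MARS1 at 1.41 and MARS2 at -0.91, followed by cysteine with CARS1 at 1.73 and CARS2 at -0.36. Summed over each class, the cytosolic genes stood at 5432, 5519.8 and 5617 CPM in the combination, against 3657, 3693 and 3644 CPM in DMSO. The mitochondrial sums were 501, 499 and 523 CPM in the combination and 566, 564 and 562 CPM in DMSO. The ratio of these sums was 10.8, 11.1 and 10.7 in the combination, while it was 6.56 to 6.60 with MG132, 6.53 to 6.71 with SHP1705 and 6.46 to 6.55 in DMSO.

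**Figure D3:**
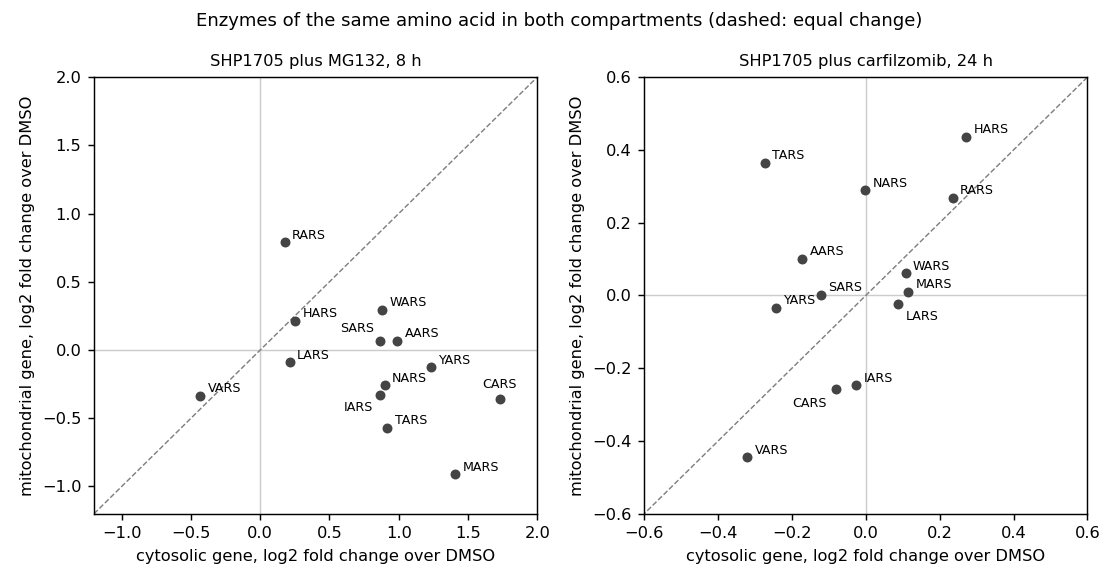
Log2 fold change over DMSO of the mitochondrial gene against that of the cytosolic gene for 13 amino acids, in the combination of the MG132 set (left) and of the CFZ set at 24 h (right, on a narrower scale). Points below the dashed line, where both genes would change equally, number 11 of 13 on the left and 6 of 13 on the right.

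The cytosolic genes were also counted by subclass, with no test between subclasses. All 7 cytosolic genes with the ATF4 core rose, with a median log2 fold change of 0.99 (0.86 to 1.73). The mitochondrial gene with the core, YARS2, was at -0.13 and did not pass. Of the 9 cytosolic genes with a promoter window and no core, 6 rose and 2 fell, with a median of 0.25 (-0.23 to 0.88). Of the 7 genes of the multi-synthetase complex 6 rose (median 0.27), and of the 12 outside it 9 rose and 3 fell (median 0.89). By the structural class of the catalytic fold, with EPRS1 counted in class I for its glutamate domain although its proline domain is of class II, 8 of 10 class I genes rose and 1 fell (median 0.83), and 7 of 9 class II genes rose and 2 fell (median 0.87).

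The genes around the synthetases were read from 6 lists, chosen with earlier results of these data known. In the MG132 combination against DMSO, 29.2% of all genes were higher and 29.7% lower. Of 8 regulators of the integrated stress response, 7 rose and 1 fell, ATF5 (-0.53 ± 0.05). ATF4 itself ranged over 375 to 390 CPM in the combination and over 126 to 137 CPM in DMSO (1.53 ± 0.04), and ATF3 (2.56 ± 0.09), CEBPG (1.29 ± 0.05) and CEBPB (1.39 ± 0.06), bZIP factors, rose with it. All 20 genes listed as ATF4 targets, which include amino acid enzymes and transporters, rose (median 1.28). Among them were the cystine transporter SLC7A11 (2.85 ± 0.05), CTH (3.23 ± 0.07), SESN2 (2.75 ± 0.06) and the serine enzyme PSAT1 (2.08 ± 0.05). Of 20 tested genes of tRNA processing and export 9 rose and 7 fell (median 0.11), with the tRNA exporter XPOT at 0.78 ± 0.03, POP1 at 0.91 ± 0.04 and RPP25 at -0.94 ± 0.08, where POP1 and RPP25 encode subunits of RNase P or MRP. Of 5 cytosolic elongation factor genes 4 rose (median 0.37), such as EEF2 (0.40 ± 0.03). Of 18 genes of mitochondrial translation 10 rose and 5 fell (median 0.16), with the elongation factor GFM2 at 0.52 ± 0.04 and GTPBP3, a tRNA modifying enzyme, at -0.61 ± 0.07. Of the 3 scaffolds of the complex, AIMP2 fell (-0.40 ± 0.06), EEF1E1 rose (0.17 ± 0.06) and AIMP1 was at 0.08 ± 0.04.

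Some markers of fibroblasts, chiefly POSTN, were higher with the combination. Of the 5 tested of 6 listed, POSTN, COL1A1 and CDH2 were higher against DMSO. DCN was at or under 0.171 CPM throughout the combination, and COL3A1 and LUM complete the list. The list summed to 115 to 271 CPM in the combination, 6.77 to 194 with MG132, 6.72 to 40.1 with SHP1705 and 6.86 to 9.29 in DMSO. Most of the combination's sum was POSTN, at 98.3, 222 and 242 CPM. MG132 replicate 3, at 194 CPM for that list, had CARS1 at 98.0 CPM and MARS1 at 96.0 CPM, beside 98.6 and 99.0 CPM of CARS1 and 96.4 and 94.9 CPM of MARS1 in MG132 replicates 1 and 2. The part of these markers in the combination's changes was not tested over its own libraries, since all 3 held POSTN, at 2876, 6865 and 8040 counts.

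With SHP1705 alone or MG132 alone at 8 h, few synthetase genes passed the test. After SHP1705 IARS1 was higher (287, 285 and 277 CPM with SHP1705, 258, 267 and 269 CPM in DMSO, 0.10 ± 0.03) and MARS2 lower (15.2, 14.5 and 14.3 CPM with SHP1705, 17.8, 17.8 and 16.4 CPM in DMSO, -0.24 ± 0.06), 2 of 35 genes, where 7.53% of all genes passed (3.45% higher and 4.08% lower). Both are at the edge of the test, with adjusted p-values of 0.0296 and 0.0212 in edgeR's quasi-likelihood fit, Benjamini-Hochberg adjusted. IARS1 was lost without DMSO replicate 1 or 2 or SHP1705 replicate 1 or 2 (0.08 to 0.11), and MARS2 without DMSO replicate 1 or 2 or SHP1705 replicate 2 or 3 (-0.23 to -0.22), so that 0 or 1 of these 2 calls stood in those fits. CARS1 was called lower (-0.14, adjusted p = 0.0397) without DMSO replicate 3, and VARS2 lower (-0.30, adjusted p = 0.0493) without SHP1705 replicate 2. With the single-agent libraries that held POSTN left out (SHP1705 replicates 2 and 3 and MG132 replicates 1 and 3), a choice made after seeing the data, 0 genes of the 35 were called. That fit has 1 SHP1705 library, which is assumed to vary like the other groups.

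MG132 alone gave 0 calls by edgeR's quasi-likelihood test, among the 35 genes and among all 16591 (0%). At an unadjusted p under 0.05 there were 4 cytosolic genes, 0 mitochondrial genes and 1574 of all genes. DESeq2 called GARS1 (0.12, adjusted p = 0.0205) and MARS1 (0.12, adjusted p = 0.0146) higher. In all it called 95 of the 1846 genes to which it gave an adjusted p. GARS1 was at 177, 179 and 186 CPM with MG132 and 161, 171 and 168 CPM in DMSO, groups that do not overlap, as held for 15.9% of all genes.

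Set against MG132 alone, the combination again raised most cytosolic genes, and this comparison shares the combination libraries with the one against DMSO. Of the cytosolic genes 15 rose and 3 fell, and of the mitochondrial genes 2 rose and 6 fell, where 57.2% of all genes passed (28.2% higher and 28.9% lower). CARS1 was at 327, 316 and 323 CPM in the combination and 98.6, 99.0 and 98.0 CPM with MG132 (1.71 ± 0.04). HARS2 (0.12) did not pass here, though it was called (0.16, adjusted p = 0.029 by edgeR's quasi-likelihood test) without MG132 replicate 2. NARS2 (-0.26) and VARS2 (-0.29) were lost without MG132 replicate 1 (-0.21 and -0.24), combination replicate 2 (-0.24 and -0.24) or, for NARS2, combination replicate 3 (-0.24). LARS2 was called lower without combination replicate 3 (-0.17) or MG132 replicate 1 (-0.16), and QARS1 lower without combination replicate 2 (-0.11).

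The interaction, which is how far the combination lay from SHP1705 and MG132 effects added up in log2 units, was positive for 15 and negative for 2 cytosolic genes (VARS1 and FARSB), and positive for 2 and negative for 4 mitochondrial genes, where 48.9% of all genes passed (24.7% higher and 24.2% lower). The term was 1.81 ± 0.05 for CARS1, 1.27 ± 0.05 for GARS1, 1.23 ± 0.04 for MARS1 and 1.14 ± 0.05 for YARS1. The mitochondrial terms were 0.93 ± 0.08 for RARS2 and 0.31 ± 0.09 for WARS2, and -0.61 ± 0.08 for TARS2, -0.60 ± 0.09 for MARS2, -0.42 ± 0.05 for IARS2 and -0.25 ± 0.07 for CARS2. QARS1 (-0.15) was called as well without combination replicate 2, SHP1705 replicate 3 or DMSO replicate 3, LARS2 (-0.21 and -0.19) without combination replicate 3 or MG132 replicate 1, and NARS2 (-0.32) without MG132 replicate 2 or SHP1705 replicate 2. Without SHP1705 replicates 2 and 3 and MG132 replicates 1 and 3, the terms of LARS1, RARS1 and WARS2 no longer passed, in a fit with 1 library for each single agent, assumed to vary like the other groups, and with all 3 POSTN-holding combination libraries kept. The libraries labelled MG132 also lay near DMSO for HSPA1A, and the part of that in the interaction was not tested.

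**Figure D4:**
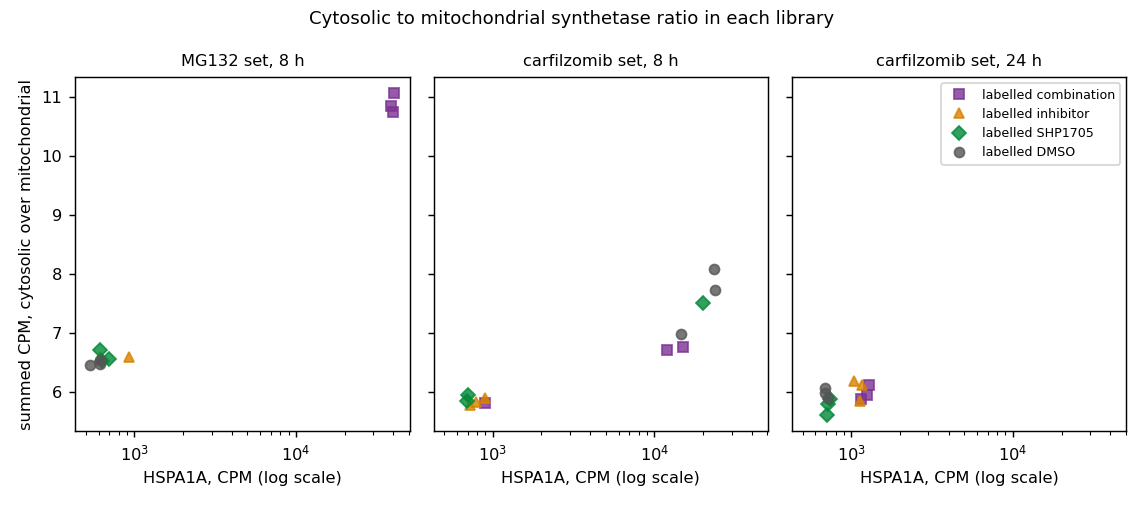
Ratio of summed cytosolic to summed mitochondrial synthetase CPM against HSPA1A (log scale) in each of the 36 libraries, by labelled group. The combination of the MG132 set lies at 10.7 to 11.1, all 24 h libraries lie between 5.61 and 6.18, and in the CFZ set at 8 h the libraries labelled DMSO lie at 6.98 to 8.09.

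At 24 h in the CFZ set the synthetase genes moved by little and in both directions. SHP1705 plus CFZ against DMSO gave 3 higher and 6 lower cytosolic genes and 4 higher and 3 lower mitochondrial genes, where 27.3% of all 16183 genes passed (13% higher and 14.3% lower). The median log2 fold changes were -0.0016 over cytosolic genes and 0.015 over mitochondrial genes, beside 0.0036 over all genes. The combination and DMSO libraries did not overlap for 12 cytosolic and 9 mitochondrial genes, and 44.4% of all genes were separated in this way. Over the 35 genes the changes ran between -0.45 in VARS2 and 0.44 in HARS2. The ratio of cytosolic to mitochondrial sums lay between 5.89 and 6.12 in the combination, 5.85 to 6.18 with CFZ, 5.61 to 5.88 with SHP1705 and 5.90 to 6.08 in DMSO.

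The valine enzymes of both compartments were the lowest of the called genes. VARS1 was at 1093, 1088 and 1128 CPM in the combination, against 1389, 1396 and 1348 CPM in DMSO (-0.32 ± 0.05). VARS2 was at 118, 128 and 105 CPM in the combination and 170.5, 158 and 149 CPM in DMSO (-0.45 ± 0.08). Both genes lie on the short arm of chromosome 6, VARS2 from 30914238 to 30926459. The same genes were lower with CFZ alone, where VARS1 was at 1049.7, 1164 and 987 CPM (-0.37 ± 0.05) and VARS2 at 122, 109 and 96.7 CPM (-0.55 ± 0.08). They were also the 2 genes of the 35 called with SHP1705 alone, where 4.46% of all genes passed (1.95% higher and 2.51% lower). With SHP1705, VARS1 was at 1125, 1005 and 1012 CPM (-0.40 ± 0.05) and VARS2 at 135, 109.7 and 129 CPM (-0.35 ± 0.08), and these 3 comparisons share the DMSO libraries. The call of VARS2 with SHP1705 was lost without SHP1705 replicate 2 (-0.27) or DMSO replicate 1 (-0.30). CARS2 was called lower with SHP1705 (-0.30, adjusted p = 0.0406 in edgeR's quasi-likelihood fit, Benjamini-Hochberg adjusted) without SHP1705 replicate 3, and RARS1 higher (0.14, adjusted p = 0.0325) without CFZ replicate 3.

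**Figure D5:**
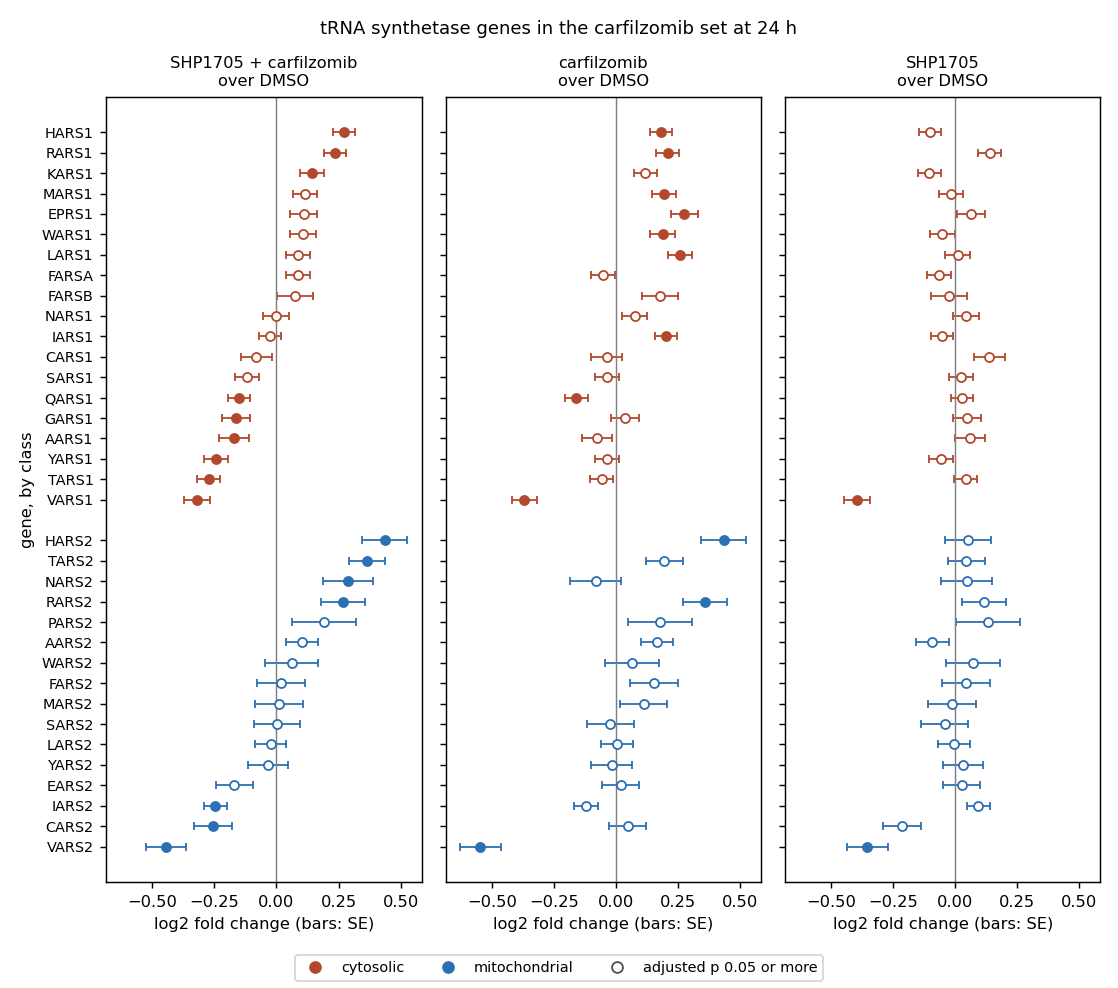
Log2 fold change over DMSO of the 35 genes at 24 h for SHP1705 plus CFZ, CFZ and SHP1705, with standard errors, filled where the adjusted p is under 0.05. VARS1 and VARS2 lie below 0 and are called in each panel, and HARS1 and HARS2 lie above 0 and are called in the first and the second.

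The histidine enzymes of both compartments rose. HARS1 was at 135, 134 and 135 CPM in the combination and 111, 111 and 112 CPM in DMSO (0.27 ± 0.04). HARS2 was at 30.5, 31.1 and 34.0 CPM in the combination and 21.6, 24.3 and 24.8 CPM in DMSO (0.44 ± 0.09). With CFZ alone HARS1 was at 125, 128 and 126 CPM (0.18 ± 0.04) and HARS2 at 36.5, 31.4 and 27.8 CPM (0.44 ± 0.09), each above all DMSO libraries, where 34.3% of all genes had groups that did not overlap. The 2 genes are neighbours on opposite strands with 84 bases between their starts of chromosome 5. The stretch between the starts, shown because both genes rose in the same comparisons, is given on the plus strand of GRCh38.p14, from RefSeq's promoter windows.
HARS1 to HARS2 (chr5:140691371-140691454, plus strand): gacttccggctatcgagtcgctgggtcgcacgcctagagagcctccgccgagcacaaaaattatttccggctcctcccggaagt

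The arginine enzymes rose as a pair as well. RARS1 was at 152, 155 and 158 CPM in the combination and 135, 130.1 and 129 CPM in DMSO (0.24 ± 0.05). RARS2 was at 21.9, 24.1 and 22.0 CPM in the combination and 18.7, 20.1 and 17.6 CPM in DMSO (0.27 ± 0.09). TARS2, lower in the MG132 combination, was higher here, at 42.7, 47.8 and 43.2 CPM in the combination and 34.4, 36.6 and 32.7 CPM in DMSO (0.36 ± 0.07), while TARS1 was lower. KARS1 was at 159, 159 and 160.3 CPM in the combination and 147, 140.1 and 147 CPM in DMSO (0.14 ± 0.05), and NARS2 also rose (0.29 ± 0.10).

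The other genes that fell in the 24 h combination included several that had risen in the MG132 combination. TARS1 was at 262, 253 and 261 CPM in the combination and 307, 318 and 312 CPM in DMSO (-0.27 ± 0.05). YARS1 was at 135, 132 and 134 CPM in the combination and 161, 157 and 156 CPM in DMSO (-0.24 ± 0.05). GARS1 was at 155, 150.5 and 162 CPM in the combination and 164, 177 and 182 CPM in DMSO (-0.16 ± 0.06). With AARS1 (-0.17 ± 0.06), these are 4 of the 15 cytosolic genes that rose in the MG132 combination, and 4 of the 6 that fell here; the agents, doses and times differ, so no test was made between them. QARS1 was at 159, 161 and 166 CPM in the combination and 178, 174 and 186 CPM in DMSO (-0.15 ± 0.05). IARS2 was at 147, 143 and 149 CPM in the combination and 175, 168 and 178 CPM in DMSO (-0.25 ± 0.05), and CARS2 at -0.26 ± 0.08. CARS1 (-0.08 ± 0.06) and MARS1 (0.11 ± 0.05), which led the MG132 set, did not pass.

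The smaller of these calls rest on few libraries. Without combination replicate 2, 10 of the 35 genes were called in place of 16, where 27.3% of all genes passed with all libraries. The share of all genes in that smaller fit is not given here, so the drop cannot be set against it. The calls of AARS1 (adjusted p up to 0.157), KARS1 (0.129) and NARS2 (0.11) were lost in 5 of the fits that left out 1 library, that of GARS1 (0.152) in 4, those of QARS1 (0.0896) and RARS2 (0.124) in 3 and that of CARS2 (0.0846) in 2, in edgeR's quasi-likelihood fit, Benjamini-Hochberg adjusted. The libraries were combination replicates 1, 2 and 3 with DMSO replicates 1 and 3 for AARS1 (-0.18 to -0.14) and with DMSO replicates 1 and 2 for KARS1 (0.12 to 0.15), and combination replicates 2 and 3 with all DMSO replicates for NARS2 (0.26 to 0.31). They were combination replicates 1 and 2 with DMSO replicates 2 and 3 for GARS1 (-0.16 to -0.13), combination replicates 1 and 2 with DMSO replicate 3 for QARS1 (-0.15 to -0.12), combination replicate 2 with DMSO replicates 1 and 3 for RARS2 (0.22 to 0.26), and combination replicate 3 with DMSO replicate 2 for CARS2 (-0.24 to -0.21). SARS1 (-0.12) was called lower without DMSO replicate 2 (-0.16) or CFZ replicate 3 (-0.12), EPRS1 (0.11) higher without DMSO replicate 3 (0.17), and MARS1 higher without CFZ replicate 3 (0.11).

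CFZ alone at 24 h raised several genes of the multi-synthetase complex. Of the 19 cytosolic genes 7 rose (EPRS1, LARS1, RARS1, IARS1, MARS1, WARS1 and HARS1) and 2 fell (VARS1 and QARS1), where 21.5% of all genes passed (10.1% higher and 11.4% lower). The 7 genes of the complex gave 5 that rose and 1 that fell (median 0.20), and the 12 outside it 2 that rose and 1 that fell (median -0.04), with no test between them. EPRS1, the enzyme for glutamate and proline, was at 193, 190 and 207 CPM with CFZ and 152, 160 and 176 CPM in DMSO (0.28 ± 0.06). LARS1 was at 188, 168 and 181 CPM with CFZ and 146, 147 and 155 CPM in DMSO (0.26 ± 0.05). MARS1 (0.20 ± 0.05) and WARS1 (0.19 ± 0.05) were lost without DMSO replicate 1 (0.16 each), and QARS1 (-0.16 ± 0.05) without DMSO replicate 3 (-0.13). Of the mitochondrial genes HARS2 and RARS2 (0.36 ± 0.09) rose and VARS2 fell. FARSB was called higher without CFZ replicate 2 (0.25), and KARS1 (0.15), TARS2 (0.24) and IARS2 (-0.15) were called without CFZ replicate 3.

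SHP1705 added to CFZ gave 0 higher and 5 lower cytosolic genes and 1 higher and 1 lower mitochondrial gene, where 9.02% of all genes passed (4.36% higher and 4.67% lower). IARS1 was at 229, 228 and 235 CPM in the combination and 266, 260 and 284 CPM with CFZ (-0.23 ± 0.04), and TARS1 at 262, 253 and 261 CPM in the combination and 286, 295 and 320.1 CPM with CFZ (-0.22 ± 0.05). YARS1 (-0.21 ± 0.05), GARS1 (-0.20 ± 0.06) and LARS1 (-0.17 ± 0.05) fell too. NARS2 was at 16.8, 18.0 and 18.3 CPM in the combination and 15.4, 11.8 and 14.2 CPM with CFZ (0.37 ± 0.10), and CARS2 at 49.1, 46.1 and 42.7 CPM in the combination and 62.6, 52.8 and 55.3 CPM with CFZ (-0.30 ± 0.08). Without combination replicate 2 or 3, 4 of 35 genes were called in place of 7, with the share of all genes in those fits not given here. The calls lost were GARS1 without combination replicate 1 or 2 or CFZ replicate 3 (-0.20 to -0.14), LARS1 without any combination replicate or CFZ replicate 1 (-0.19 to -0.14), NARS2 without combination replicate 2 or 3 or CFZ replicate 2 (0.26 to 0.36) and CARS2 without combination replicate 3 or CFZ replicate 1 (-0.26 to -0.23). EPRS1 (-0.17) was called lower without CFZ replicate 2 (-0.19), and without CFZ replicate 1 FARSA was called higher (0.18) and EARS2 lower (-0.25).

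VARS1 was the 1 gene of the 35 with an interaction at 24 h (0.44, adjusted p = 0.00374 in edgeR's quasi-likelihood fit, Benjamini-Hochberg adjusted), where 0.482% of all genes passed (0.21% higher and 0.272% lower). Its log2 fold change over DMSO was -0.32 in the combination, -0.37 with CFZ and -0.40 with SHP1705. VARS2 had a term of the same size (0.45, adjusted p = 0.08) and was called without CFZ replicate 1 (0.53), CFZ replicate 2 (0.45) or SHP1705 replicate 1 (0.52). Without CFZ replicate 2 TARS1 was called as well (-0.27), which made 3 genes.

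The lists at 24 h in the combination against DMSO held 1 higher and 3 lower of 8 stress regulators. Of all genes, 13% were higher and 14.3% lower. ATF4 was lower and ranged over 152 to 161 CPM in the combination and over 189.9 to 200.3 CPM in DMSO (-0.34 ± 0.05), as were CEBPG (-0.37 ± 0.06) and TRIB3 (-0.25 ± 0.09), while ATF3 was higher (0.39 ± 0.12). Of 19 tested ATF4 targets 4 rose and 6 fell (median -0.11), such as DDIT4 (0.57 ± 0.05) and SLC7A1 (-0.31 ± 0.05). Of 20 tested genes of tRNA processing 12 rose and 1 fell (median 0.22), among them the RNase Z gene ELAC2 (0.57 ± 0.05) and the RNase P subunits POP4 (0.50 ± 0.07) and POP5 (0.47 ± 0.07). Of 18 mitochondrial translation genes 7 rose and 0 fell (median 0.18), among them TUFM (0.19 ± 0.05), the mitochondrial elongation factor. Cytosolic elongation factors gave 1 higher and 2 lower of 5, and the scaffolds 0 of 3.

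The CFZ set at 8 h is described by label. The 3 libraries labelled CFZ against the 3 labelled DMSO gave 1 higher (FARSB) and 8 lower cytosolic genes (CARS1, GARS1, MARS1, EPRS1, IARS1, YARS1, NARS1 and SARS1), with IARS2 higher and RARS2 and AARS2 lower among the mitochondrial genes, where 23% of all 15577 genes passed (11.7% higher and 11.3% lower). CARS1 was at 129, 120 and 104 CPM in the libraries labelled CFZ and at 143, 212 and 219 CPM in those labelled DMSO (-0.70 ± 0.18). RARS2 was at 22.0, 22.9 and 23.2 CPM in the libraries labelled CFZ and 33.4, 40.1 and 37.4 CPM in those labelled DMSO (-0.70 ± 0.18). FARSB was at 85.3, 88.1 and 91.3 CPM in the libraries labelled CFZ and 73.7, 62.9 and 71.3 CPM in those labelled DMSO (0.35 ± 0.10). HSPA1A was high in those labelled DMSO, so these directions hold for the labels and cannot be read as an effect of CFZ. All 12 calls were lost without CFZ replicate 1, 2 or 3 or DMSO replicate 2 or 3, and 23 of the 35 were called without SHP1705 replicate 1, where 39.2% of all genes were.

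Groups within the 8 h CFZ set were spread widely for the same genes. MARS1 was at 163, 217 and 235 CPM in the libraries labelled combination, 177, 166 and 160.1 CPM in those labelled CFZ, 259, 175 and 172 CPM in those labelled SHP1705 and 222, 291 and 288 CPM in those labelled DMSO. VARS1 ran the other way, at 899, 743 and 929 CPM in the libraries labelled combination, 913, 855 and 860 CPM in those labelled CFZ, 608, 922 and 799 CPM in those labelled SHP1705 and 790, 645 and 610 CPM in those labelled DMSO. The coefficient of variation that edgeR fitted within groups was 0.172 here, 0.0672 at 24 h and 0.0455 in the MG132 set. The other 4 contrasts gave 0 calls among the 35 genes and 0% of all genes by edgeR's quasi-likelihood test. At an unadjusted p under 0.05, 10 of the 35 were found with SHP1705 (14.4% of all genes), 7 in the combination against DMSO (9.33%), 1 in the combination against CFZ (5.76%) and 13 in the interaction (25.4%), and DESeq2 called 0 of the 35 in each. Without SHP1705 replicate 1, 14 of the 35 were called for SHP1705 (23.1% of all genes) and 19 for the interaction (32.1%), and 8 for the interaction without combination replicate 1 (17.9%). With combination replicate 1 and SHP1705 replicate 1 left out together, a choice made after seeing the data, 22 were called for SHP1705 (36.3% of all genes), 25 for CFZ (47.3%), 0 for the combination against DMSO (0%) and 9 for the combination against CFZ (27.2%).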

How the data were processed

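PolyA RNA of MDA-MB-231 cells was sequenced in 36 libraries, deposited as 3 gene count tables of 12 libraries. The authors used Trimmomatic, FastQC, HISAT2 and featureCounts with build hg38, per the submitters' processing notes. Not given in the sources used here were versions, strand setting and the treatment of reads shared between genes. The deposited values are raw counts. Libraries held 17800000 to 39300000 counts. Each table was fitted alone with edgeR 4.0.16 (R 4.3.3): low-count genes removed by filterByExpr, TMM factors, quasi-likelihood test over 4 groups, Benjamini-Hochberg adjustment over all genes, calls under 0.05. Fold changes are on the log2 scale with a prior count of 0.125. The standard error is the fold change divided by the square root of F. The method was tested on simulated data. Alternatives were DESeq2 1.42.0, relative log expression factors, the fit without the filter, a replicate block and each library left out. The members and lists, the rule for naming genes and the settings were chosen with earlier results of these data known. All 35 genes are reported, and values per library are given for those with the smallest p in the combination against DMSO, those against their class, KARS1, GARS1, HARS1 and HARS2. Of the 36 pairs of libraries within a group, 0 held identical values. Promoters and coordinates are from RefSeq on GRCh38.p14. Of the lists of markers, those of the line, of low line markers, of liver, of blood and of luminal cells served to check the labels.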

Additional observations from a re-analysis of the deposited data

Results flagged for a closer look

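For 18 comparisons of a synthetase gene, every library of the named group lay on one side of its DMSO libraries at 24 h and on the other side at 8 h. These were 14 of 35 genes for CFZ, where 18.5% of all genes tested at both times did the same, 3 for its combination (7.39%) and 1 for SHP1705 (1.29%). In each case the difference between the times was not tested, since the times are separate tables. For CFZ and its combination the 8 h values come from a set where HSPA1A or PER3 went against the labels of several libraries. The part of this in the differences was not tested.

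For CFZ against DMSO at 24 h the log2 fold change was 0.28 in EPRS1, 0.18 in HARS1, 0.20 in IARS1, 0.12 in KARS1, 0.20 in MARS1, 0.08 in NARS1, 0.21 in RARS1 and 0.19 in WARS1. The libraries labelled CFZ and DMSO at 8 h gave -0.61 for EPRS1, -0.27 for HARS1, -0.48 for IARS1, -0.22 for KARS1, -0.67 for MARS1, -0.43 for NARS1, -0.21 for RARS1 and -0.32 for WARS1. QARS1 stood at -0.16 and VARS1 at -0.37 at 24 h, and at 0.13 and 0.36 at 8 h. Of the mitochondrial genes AARS2 was at 0.17, IARS2 at -0.12, RARS2 at 0.36 and VARS2 at -0.55 at 24 h, and at -0.38, 0.44, -0.70 and 0.37 at 8 h.

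For the combination with CFZ against DMSO, KARS1 was at 0.14, CARS2 at -0.26 and RARS2 at 0.27 at 24 h, and at -0.13, 0.34 and -0.36 in the libraries so labelled at 8 h. For SHP1705 against DMSO, IARS1 was at -0.05 at 24 h and at 0.10 at 8 h in the MG132 set.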

How the results depend on the processing

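No synthetase gene called in any comparison changed direction under the alternatives run. Of the MG132 set, the combination gave 27 called genes with relative log expression factors and with DESeq2, and 26 to 28 with 1 library left out, against 25 to 27 over MG132 alone and 23 to 24 for the interaction. With all libraries, 58.8%, 57.2% and 48.9% of all genes passed in these comparisons, in that order. SHP1705 alone gave 0 to 3 with 1 library left out and 0 with 4 single-agent libraries left out. MG132 alone gave 0 in each fit with 1 library left out and 2 by DESeq2. Over all genes it gave 0, but 303 of 36912 without the filter, 95 of 1846 by DESeq2 and 3 of 16591 with the block. At 24 h the counts with 1 library left out were 10 to 18 for the combination, 10 to 15 for CFZ, 4 to 7 for the combination over CFZ, 1 to 3 for SHP1705 and 1 to 3 for the interaction. With all libraries, 27.3%, 21.5%, 9.02%, 4.46% and 0.482% of all genes passed in these 24 h comparisons, in that order. For both sets the shares of all genes with 1 library left out are not given here. The 24 h interaction gave 3 without the filter, 6 by DESeq2 and 2 with the block. Over all genes it gave 78 of 16183, 364 of 30624 without the filter, 360 of 6281 by DESeq2 and 91 of 16183 with the block.

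The CFZ set at 8 h depended most on the settings. With 1 library left out, CFZ gave 0 to 23 (0% to 39.2% of all genes), SHP1705 0 to 14 (0% to 23.1%) and the interaction 0 to 19 (0% to 32.1%). The combination gave 0 in each of these fits, over DMSO and over CFZ. Without the filter SHP1705 gave 1 (3.28% of all genes), the combination over DMSO 2 (2.15%) and the interaction 5 (7.3%). With combination and SHP1705 replicate 1 left out, SHP1705 gave 22 (36.3% of all genes), CFZ 25 (47.3%), the combination over CFZ 9 (27.2%) and the interaction 23 (47.7%). With all replicates numbered 1 left out, SHP1705 gave 25 (49.3% of all genes), CFZ 25 (53.8%) and the interaction 25 (56.3%). The combination then gave 14 over DMSO (18%) and 14 over CFZ (37.9%). Over all genes 3587 of 15577 were called for CFZ and 0 in the other comparisons. Without the filter it was 1050.0 for SHP1705, 688 and 502 for the combination over DMSO and CFZ and 2337 for the interaction. DESeq2 gave 315 of 14614 for the interaction. With 2 libraries left out it was 5711 for SHP1705, 7452 for CFZ, 4284 for the combination over CFZ and 7507 for the interaction. With 4 left out it was 7711, 8421, 2822 over DMSO, 5927 over CFZ and 8811. SHP1705 in the MG132 set gave 1249 genes, and 150 with 4 libraries left out. The cause of these shifts was not tested.

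Same-numbered libraries deviated together with correlations of -0.047 to 0.047 at 24 h and -0.0926 to 0.151 in the MG132 set. For different numbers the correlations were -0.052 to 0.042 at 24 h and -0.219 to 0.208 in the MG132 set. The values thus show no marked pairing by number, and whether same-numbered libraries were handled together is not stated. In the CFZ set at 8 h the correlations were -0.657 to 0.229 for the same number and -0.399 to 0.567 for different numbers. Libraries of different groups thus did not deviate independently there, and what the replicate number stands for in that set was not tested. With the replicate block CFZ against DMSO at 8 h gave 0 called synthetase genes in place of 12, and 0 of all genes.

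The limits are 3 libraries a group, unstated origin of replicates, and counts relative to the rest of polyA RNA. The lowest synthetase gene, PARS2, averaged 7.17 CPM or more in each group, so depth did not leave a gene untested.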
